A study of Mus musculus with 3 samples.

Results

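Genes of MHC class I antigen presentation, with the checkpoint ligand gene Cd274, were examined in sorted cells of mouse back skin. The set holds 10 genes chosen by symbol, and all 10 were found among the 44625 gene entries of the deposited table. H2-K1, H2-D1, H2-Q6 and H2-T23 encode class I heavy chains, and B2m encodes their shared light chain. Tap1, Tap2 and Tapbp serve peptide transport and loading, and Nlrc5 encodes a transactivator of class I genes. Cd274 encodes PD-L1 and is the only gene of the set outside the class I pathway.

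RNA was sequenced from 3 libraries that form 1 group. The labels describe wild-type mice at 56 days of age, when the hair follicles are in their second telogen or resting phase, and skin digested with trypsin from which live Alpha6+/Sca1- cells were sorted. Alpha6 is an integrin of basal epithelial cells and Sca1, the product of Ly6a, is a surface protein of interfollicular and upper follicle cells. The strain, the sex and the number of animals per library are not given in the sources used here, the staining protocol names an antibody to integrin alpha6 only, and the labels speak of duplicates although there are 3 libraries. The p-values and SDs given here then measure the spread between these libraries, which may be technical.

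MHC class I molecules carry peptides from inside the cell to its surface, where CD8 T cells read them. Peptides are cut by the proteasome, pumped into the endoplasmic reticulum by the transporter made of TAP1 and TAP2, and loaded with the help of tapasin (Tapbp) onto a heavy chain paired with beta-2 microglobulin. The hair follicle is known as a site of immune privilege, a state described for its growing bulb and its bulge in which class I is low and inhibitory factors are made. PD-L1 on a cell engages the receptor PD-1 on T cells and dampens them.

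The promoters of the class I heavy chain genes are shown first, because they carry the enhancer through which NF-kappa B and interferon act on these genes, and because they show how closely H2-Q6 and its neighbours are related. The RefSeq promoter set used here, on GRCm38.p6, holds an entry for 8 of the 10 genes, the exceptions being Tap2 and Nlrc5. In each sequence, written 5′ to 3′ on the gene's strand, capitals mark exact matches on either strand to 4 motifs: the kappa B site (the first run of 11 capitals in H2-K1 and H2-Q6), the interferon response core TTTCACTTC, the X2 core TGACG and the Y box ATTGG. The last base lies just before the annotated start. The windows are H2-K1 at chr17:34000348-34000597 (minus strand), H2-Q6 at chr17:35424600-35424849 (plus), H2-Q7 at chr17:35438905-35439154 (plus) and B2m at chr2:122147437-122147686 (plus).
H2-K1: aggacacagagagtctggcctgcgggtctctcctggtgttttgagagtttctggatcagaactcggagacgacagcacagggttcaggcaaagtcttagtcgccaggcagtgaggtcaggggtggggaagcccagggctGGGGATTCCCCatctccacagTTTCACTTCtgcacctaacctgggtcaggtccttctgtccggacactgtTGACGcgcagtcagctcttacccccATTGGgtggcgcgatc
H2-Q6: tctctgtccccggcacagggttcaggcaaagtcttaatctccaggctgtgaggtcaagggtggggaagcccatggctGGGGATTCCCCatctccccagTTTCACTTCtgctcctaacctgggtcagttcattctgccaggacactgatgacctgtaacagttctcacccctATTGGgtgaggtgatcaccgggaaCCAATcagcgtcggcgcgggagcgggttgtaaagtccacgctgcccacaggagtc
H2-Q7: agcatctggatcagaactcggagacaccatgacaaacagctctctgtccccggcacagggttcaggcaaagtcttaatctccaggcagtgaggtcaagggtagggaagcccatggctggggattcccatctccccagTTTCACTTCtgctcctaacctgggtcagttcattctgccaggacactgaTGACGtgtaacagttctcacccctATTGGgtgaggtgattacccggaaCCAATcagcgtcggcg
B2m: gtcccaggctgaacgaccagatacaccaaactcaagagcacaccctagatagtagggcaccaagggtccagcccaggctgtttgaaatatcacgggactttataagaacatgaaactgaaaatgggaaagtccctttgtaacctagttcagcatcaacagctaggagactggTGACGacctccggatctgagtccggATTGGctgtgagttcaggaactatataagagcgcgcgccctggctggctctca

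The kappa B site was found in the windows of 3 genes of the set, H2-K1, H2-D1 and H2-Q6, and these also held the interferon response core. Among all 32851 promoter windows of 250 bases, 0.0304% held the kappa B site and 0.402% the interferon response core. Both together occurred in 4 windows, which belong to these same 3 genes, H2-K1 having 2 annotated starts. Each was searched as a single exact word with the letters of the class I enhancer, not as a general binding motif. Its rarity in other windows therefore follows in part from the choice of word. The windows of these 3 genes are also alike in sequence, so they are not separate matches. The short X2 core was present in 4 genes of the set (H2-K1, H2-D1, B2m and Tap1) against 17.8% of all windows, and the Y box in 7 of 8 against 33.8%. Cd274 had no match to any of the 4 motifs in its window. No match of 1 motif overlapped a match of another in these windows. A match is a run of letters and not evidence of binding.

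The enhancer can be compared over the 30 bases that end with the interferon response core in each heavy chain gene that holds it. They lie at chr17:34000429-34000458 in H2-K1, chr17:35262923-35262952 in H2-D1, chr17:35424677-35424706 in H2-Q6, chr17:35439021-35439050 in H2-Q7, chr17:35379443-35379472 in H2-Q4 and chr17:35469913-35469942 in H2-Q10, and capitals have the same meaning as above.
H2-K1: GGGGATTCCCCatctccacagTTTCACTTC
H2-D1: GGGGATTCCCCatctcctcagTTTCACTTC
H2-Q6: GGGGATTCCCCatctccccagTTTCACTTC
H2-Q7: tggggattcccatctccccagTTTCACTTC
H2-Q4: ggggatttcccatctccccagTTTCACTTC
H2-Q10: gaggactccccatctccccagTTTCACTTC

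In H2-K1, H2-D1 and H2-Q6 the 30 bases begin with the kappa B site, and in H2-Q7, H2-Q4 and H2-Q10 no exact match stood there. Aligned without gaps, the windows of H2-K1 and H2-D1 were identical at 87.4% of 190 bases, and those of H2-Q6 and H2-D1 at 77.0% of 248 bases. H2-Q6 and its neighbour H2-Q7 were identical at 71.6% of 211 bases. The window of H2-T23, a nonclassical gene, was identical to that of H2-D1 at 32.0% of 250 bases, and its only match was 1 Y box. GENCODE M21 places all 250 bases of the RefSeq window of H2-D1, 154 of that of H2-T23 and 146 of that of Tapbp, inside an exon of the same gene, so the 2 annotations differ on where these transcripts begin.

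**Figure D1:**
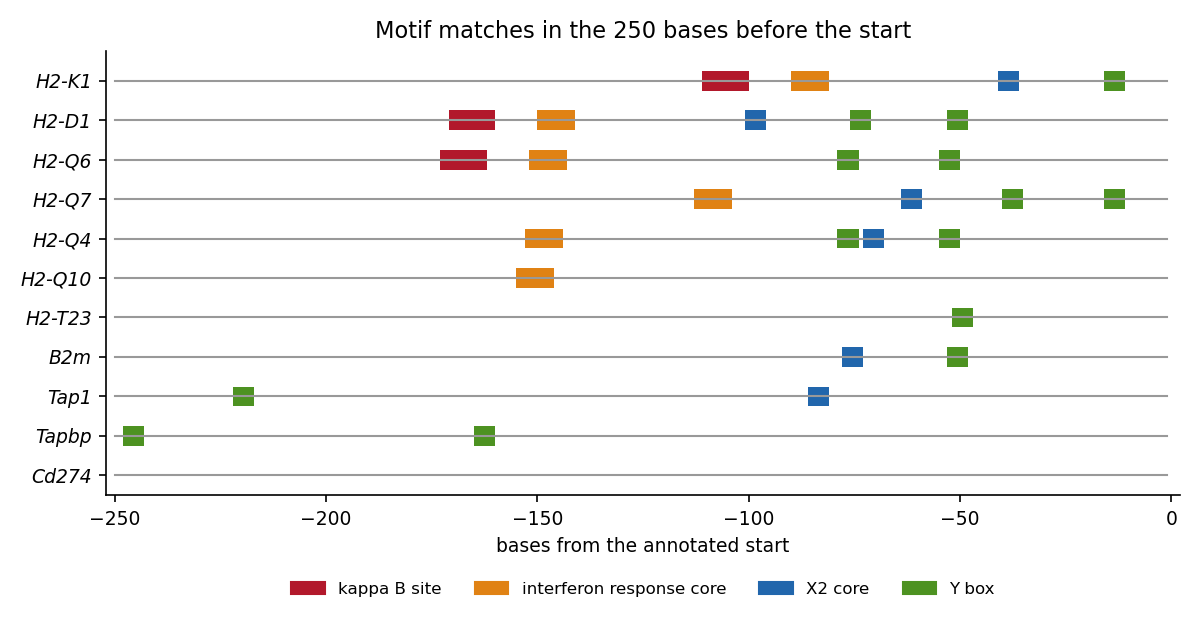
Positions of the 4 motifs in the 250 bases before the RefSeq start (horizontal axis, bases from the start) for the 8 genes of the set with an entry and for H2-Q7, H2-Q4 and H2-Q10. Coloured blocks are exact matches on either strand. The kappa B site appears in H2-K1, H2-D1 and H2-Q6, each time upstream of the interferon response core.

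Depth ranged from 29283936 to 39198620 counts per library, and TPM (counts per base of gene length, scaled to the same total in each library) was used to set genes side by side. A mean TPM of at least 1 was counted as detected, which 13664 genes reached. The integrin gene Itga6 had 112 ± 9.12 TPM and Ly6a had 7.91 ± 4.31 TPM (SD, n = 3). Among immune cell markers, Ptprc had 0, 0 and 5 counts in replicates 1, 2 and 3, and Cd3d, Cd8a, Lyz2 and C1qb had 0 in all. None of the 8 T and NK cell markers or the 5 macrophage markers was detected, but 2 of the 6 Langerhans and dendritic cell markers were, Cd74 with 10.7 ± 3.23 TPM and H2-Aa with 3.08 ± 1.43 (SD, n = 3). All 7 hair follicle stem cell markers and all 4 basal keratinocyte markers were, as were 4 of 4 suprabasal markers, whose summed level was 1647, 3142 and 5014 TPM in replicates 1, 2 and 3. In bulk libraries, fewer cells of a type and less RNA per cell cannot be told apart.

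Of the 10 genes, 9 were detected, where the share over all entries was 30.6%, and Cd274 lay just under the limit. Their levels spanned from the 99.5th percentile of detected genes for B2m to about 1 TPM for Cd274. The classical heavy chain genes stood with B2m at the top, the loading genes in the middle, and the regulator and the checkpoint ligand at the bottom.

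**Figure D2:**
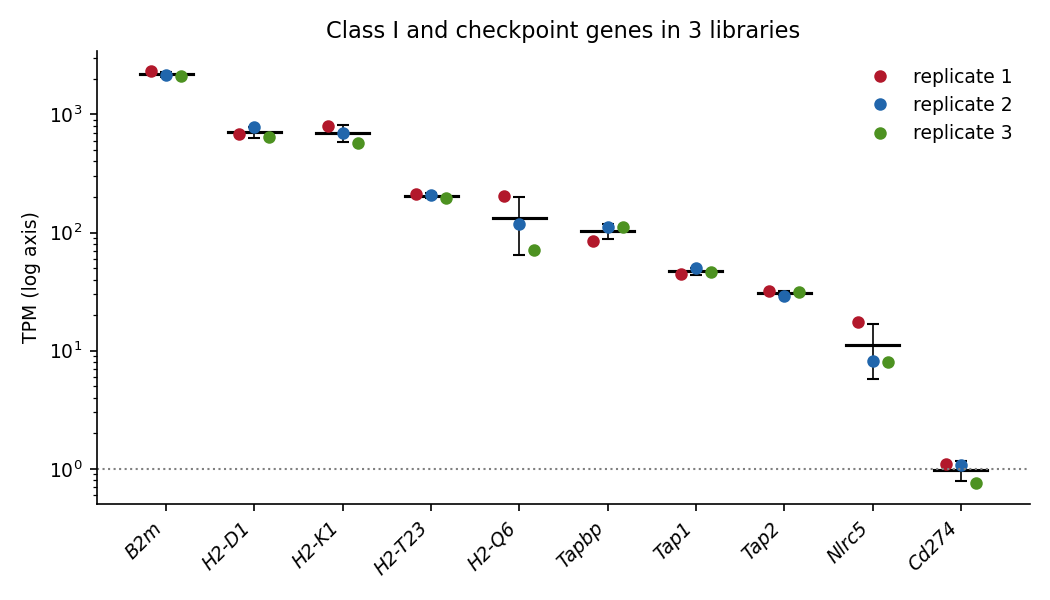
TPM of the 10 genes (log axis) in replicates 1, 2 and 3 (points), with the mean (bar) and SD (whiskers), in order of the mean. The dotted line is the detection limit of 1 TPM. H2-Q6 and Nlrc5 show the widest spread, with replicate 1 highest in both.

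B2m (chromosome 2, 122147686 to 122153083, plus strand) had 2312, 2148 and 2093 TPM in replicates 1, 2 and 3. The 3 values lie close together, with a mean of 2184 ± 114 (SD, n = 3) and a coefficient of variation of 5.23%, where the median over detected genes was 22.3%. None of its 50-base words occurred in the transcripts of another gene, so its count is not shared with a copy.

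H2-D1 (chromosome 17, 35262730 to 35267499, plus strand) encodes a classical heavy chain and had 678, 785 and 644 TPM, a mean of 702 ± 74.0 (SD, n = 3). H2-K1 (chromosome 17, 33996017 to 34000347, minus strand), the other classical gene examined, had 802, 699 and 576 TPM, a mean of 693 ± 113 (SD, n = 3). Their ranges overlap and their order changed between libraries. The mean difference of log2(TPM + 1) was 0.03 ± 0.24 (SD, n = 3), and the two-sided exact sign-flip permutation test gave p = 1, where 0.25 is the smallest p that 3 libraries allow. Classical class I genes are highly polymorphic between mouse strains, and whether the alleles of these mice match the reference was not tested.

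H2-T23 encodes Qa-1, a nonclassical molecule that presents leader peptides of other class I chains to NK cell receptors of the CD94/NKG2 type. It lies on chromosome 17 (36029773 to 36032855, minus strand) and had 212, 207 and 195 TPM, a mean of 205 ± 9.08 (SD, n = 3). With a coefficient of variation of 4.43% it was among the steadiest of the 10. H2-K1 exceeded it in every library, by 1.74 ± 0.18 on the log2 scale (SD, n = 3).

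H2-Q6 belongs to the Qa-2 family of nonclassical genes and lies on chromosome 17 (35424850 to 35430055, plus strand). It had 204, 119 and 71.1 TPM from 4591, 3395 and 2287 counts, a mean of 131 ± 67.5 (SD, n = 3). Replicate 1 was highest and replicate 3 lowest, a range of 1.51 on the log2 scale. The exact Poisson 95% intervals, 198 to 210, 115 to 123 and 68.2 to 74.1 TPM, did not touch, so counting error does not cover the spread. Its coefficient of variation of 51.3% lay at the 79.7th percentile of detected genes. Such intervals cover counting error only.

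Tapbp, encoding tapasin, lies on chromosome 17 (33915899 to 33929292, plus strand) and had 85.5, 112 and 112 TPM, a mean of 103 ± 15.1 (SD, n = 3). It was lowest in replicate 1, where H2-Q6 was highest, and the 2 genes did not differ beyond their spread: the log2 difference was 0.23 ± 0.95 (SD, n = 3), exact sign-flip p = 0.75. Of its 50-base words, 20.3% also occur in Gm19412, annotated on the opposite strand. The strand setting of the counting is not given in the sources used here, so reads of the pair cannot be told apart.

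The transporter genes were lower and steadier. Tap1 (chromosome 17, 34187553 to 34197225, plus strand) had 44.4, 50.2 and 45.9 TPM, a mean of 46.8 ± 3.01 (SD, n = 3). Tap2 (chromosome 17, 34203527 to 34216321, plus strand) had 31.9, 29.3 and 31.2 TPM, a mean of 30.8 ± 1.36 (SD, n = 3). Tap1 was higher in all 3 libraries, by 0.59 ± 0.15 on the log2 scale, although the proteins act as a pair.

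Nlrc5, the class I transactivator, is encoded on chromosome 8 (94434356 to 94527272, plus strand) and had 17.5, 8.10 and 7.94 TPM from 1603, 942 and 1040 counts. Replicates 2 and 3 nearly coincide and replicate 1 exceeded both by more than 1 on the log2 scale, which 10.6% of detected genes did in that library. Its mean was 11.2 ± 5.48 (SD, n = 3), or 8.02 without replicate 1. No other gene of the set passed this limit in any library, where 0.527% of detected genes did so in replicate 2 and 1.29% in replicate 3. H2-Q6 exceeded the mean of the other libraries by 1.14 in replicate 1 but replicate 2 by less than the limit.

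Cd274, on chromosome 19 (29367455 to 29388095, plus strand), had 1.10, 1.07 and 0.752 TPM from only 43, 53 and 42 counts. The exact Poisson 95% intervals, 0.797 to 1.48, 0.801 to 1.40 and 0.542 to 1.02 TPM, overlap, so no difference between libraries was detectable at this depth. Its mean of 0.974 ± 0.193 (SD, n = 3) was below 1 TPM, and Nlrc5, the next gene above it, was higher by 2.54 ± 0.53 on the log2 scale.

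Read down the order of means, 7 of 9 neighbouring pairs differed in 1 direction in all 3 libraries, with a mean difference larger than its SD. The 2 exceptions were H2-D1 against H2-K1 and H2-Q6 against Tapbp. For those 7 pairs the exact sign-flip p was 0.25, the smallest possible, and 0.321 after Benjamini-Hochberg adjustment over the 9 pairs, so no pair could pass 0.05 in this design. H2-T23 against H2-Q6 was the least even of the 7, with differences of 0.06, 0.80 and 1.44 in replicates 1, 2 and 3.

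Summed over 22 class I heavy chain genes, including those at 0, the level was 2311, 2036 and 1678 TPM in replicates 1, 2 and 3. The sum includes H2-K2, annotated as a transcribed pseudogene, and H2-Q5, H2-T10 and H2-Bl, annotated as polymorphic pseudogenes. H2-K1 and H2-D1 together made 64.0%, 72.9% and 72.7% of it, a mean of 69.9% ± 5.07 (SD, n = 3). The summed heavy chain level divided by that of B2m was 0.999, 0.948 and 0.802, a mean of 0.916 ± 0.102 (SD, n = 3). Heavy chain and light chain transcripts were thus of similar level per length in these libraries, with replicate 1 at the upper end.

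The close paralogs of H2-Q6 were followed gene by gene. H2-Q4 had 133, 65.5 and 53.2 TPM, H2-Q7 had 120, 60.5 and 43.4, H2-Q5 had 36.4, 14.4 and 12.4, and H2-Q10 had 7.96, 3.75 and 3.01. All 5 detected H2-Q genes, H2-Q6 included, were highest in replicate 1 and lowest in replicate 3. They were highest in replicate 1 under each of 3 other scalings as well. Replicate 1 exceeded the mean log2 level of the others by 1.14 for H2-Q6, 1.16 for H2-Q4, 1.22 for H2-Q7, 1.38 for H2-Q5 and 1.04 for H2-Q10, where the median over detected genes was 0.24 and 11.1% of them reached the value of H2-Q6. The same offset was 0.34 for H2-K1, -0.07 for H2-D1 and 0.08 for H2-T23.

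These genes also share sequence. Of the 50-base words in the GENCODE M21 transcripts of H2-Q6, 35.0% occur in transcripts of another gene, and 13.0% of its 100-base words do. H2-Q7 alone shares 13.9% of the 50-base words and H2-Q4 12.3%. For the other heavy chain genes of the set the shares were lower, 14.5% for H2-T23, 12.8% for H2-D1 and 9.63% for H2-K1, while H2-Q4 and H2-Q5 each had 36.4% and H2-Q7 had 26.5%. How reads that fit several genes were counted is not given in the sources used here, so the values of H2-Q6, H2-Q7 and H2-Q4 are uncertain to that extent and the part of shared reads was not tested. H2-Q6 held 45.3% of the counts of H2-Q6 and H2-Q7 in replicate 1 (exact binomial 95% interval 44.4 to 46.3). Replicate 2 gave 49.0% (47.8 to 50.2) and replicate 3 gave 44.5% (43.1 to 45.8), for a mean of 46.3% ± 2.41 (SD, n = 3). By TPM, which divides by gene length, its share was 63.8%. These shares are over 2 of the 4 genes planned, since H2-Q8 and H2-Q9 were matched to no entry by symbol or identifier and were not analysed here.

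**Figure D3:**
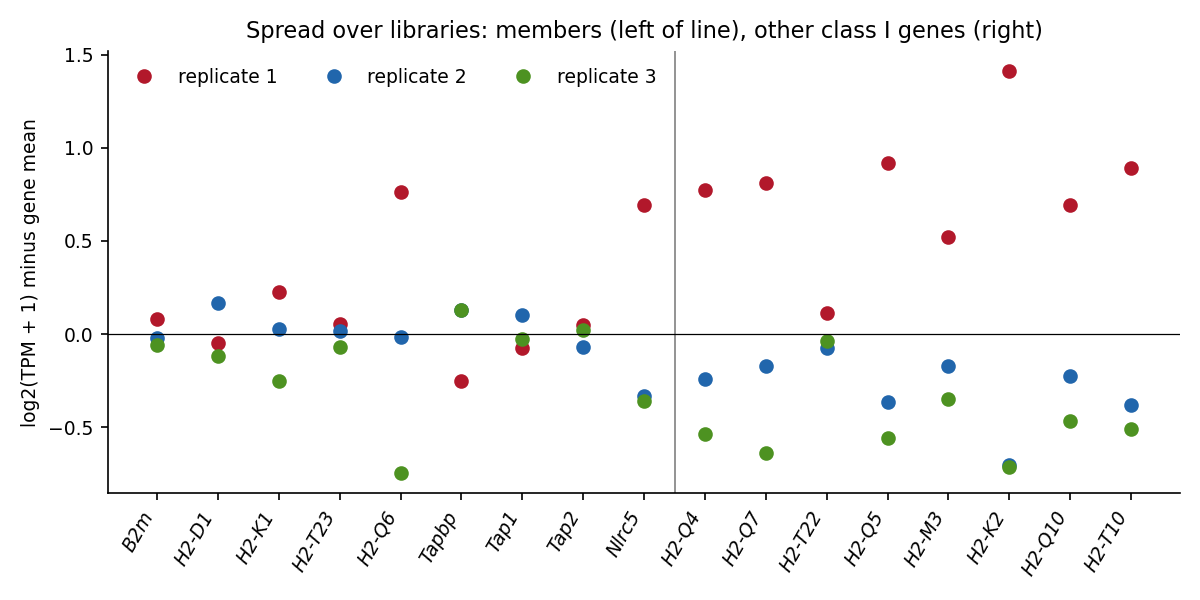
Level of each gene in replicates 1, 2 and 3 as log2(TPM + 1) minus the gene's mean, for detected genes of the set (left of the line) and for other class I genes (right), both in order of mean TPM. H2-Q6, Nlrc5, H2-Q4, H2-Q7, H2-Q5, H2-K2, H2-Q10 and H2-T10 stand high in replicate 1, while H2-D1, H2-T23, Tap1 and Tap2 lie near 0 in every library.

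By TPM, replicate 1 gave the top value for 7 of the 10 genes, replicate 2 for 3 and replicate 3 for 0. Over detected genes the shares were 59.6%, 20% and 20.4%, so the excess in replicate 1 is near the background. The count for replicate 1 was 4 after scaling to the upper quartile, 4 without mitochondrial genes and 2 as CPM (counts scaled to the library total) with TMM factors, where the shares over detected genes were 54.5%, 56.5% and 42.7%. H2-Q6 and Nlrc5 were the 2 that were highest in replicate 1 under every scaling tried.

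The only contrast in the data is the one in the authors' deposited table, whose column names set these libraries against bulge libraries, which were not analysed here. A positive log2 fold change there means higher in the Alpha6+/Sca1- libraries, a direction read from genes with 0 counts in all 3 libraries. At an adjusted p under 0.05 in the authors' deposited table, 8 of the 10 genes were higher and 2 lower. Over the 20274 genes with an adjusted p, 23.6% were higher and 32% lower, and among detected genes 35.1% were higher and 25.6% lower. These shares are the background for the counts of each list below. The median log2 fold change in the authors' deposited table was 1.92 for the set, -0.36 for all genes and 0.25 for detected genes.

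Heavy chain genes were higher by similar amounts in the authors' deposited table. H2-T23 had a log2 fold change of 2.48 (adjusted p = 4.19e-19), H2-D1 2.22 (1.19e-22), H2-Q6 2.21 (1.23e-11) and H2-K1 1.82 (1.67e-22). On the linear scale of the authors' deposited table these are 5.56, 4.66, 4.62 and 3.53 times. The loading genes were higher too: Tap2 had the highest value of the set, 3.66 (3.14e-27) or 12.6 times, Tap1 had 2.01 (4.16e-16) and Tapbp 1.73 (9.01e-10), per the authors' deposited table. Tap2, the lower of the transporter genes in these libraries, thus had the larger of their fold changes, a difference that was not tested. Nlrc5 was higher by 1.05 (0.00226) in the authors' deposited table.

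B2m went the other way in the authors' deposited table, with a log2 fold change of -0.49 (adjusted p = 0.0175), although its protein pairs with every heavy chain. Cd274 was lower there by -1.24 (adjusted p = 0.0400), on a level near 1 TPM in these libraries. With a limit of 0.01 on the adjusted p of the authors' deposited table, neither B2m nor Cd274 stayed called, and with a log2 change of at least 1 in size Cd274 did.

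**Figure D4:**
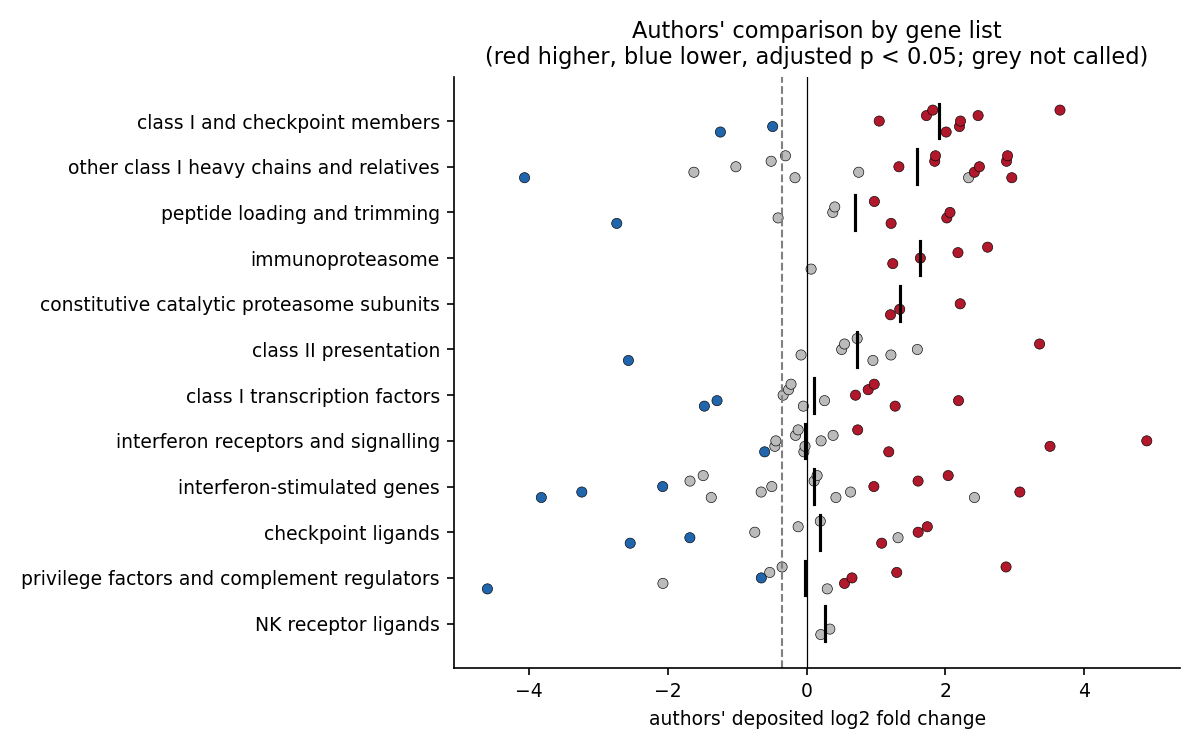
The authors' deposited log2 fold change (horizontal axis, positive is higher in the Alpha6+/Sca1- libraries) for genes with an adjusted p, by list. Points are genes, red higher and blue lower at an adjusted p under 0.05, grey not called, the short bar is the list's median and the dashed line the median of all genes. In the top row 8 genes lie to the right and B2m and Cd274 to the left.

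The 7 higher genes other than Nlrc5 lie within the MHC on chromosome 17, between 33915899 and 36032855. In that interval, 178 entries were on neither the set nor the other presentation lists, and 99 of them had an adjusted p in the authors' deposited table. Of these 99, 54.5% were higher and 11.1% lower, with a median log2 fold change of 1.31. The share higher among these unlisted genes was thus above the 23.6% of all tested genes and the 35.1% of detected genes. Of 15 tested genes of the interval on the other presentation lists, 40% were higher and 6.67% lower. These shares are given with no test, and relatives of class I genes may remain among the unlisted ones. Nlrc5, B2m and Cd274 lie on other chromosomes.

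Of the epithelial marker lists, only the suprabasal one was called in a single direction in this contrast. Among detected genes 35.1% were higher and 25.6% lower. The suprabasal genes Krt1, Krt10, Lor and Ivl were higher in 4 of 4 cases in the authors' deposited table, with a median log2 fold change of 3.23, and Ly6a was lower by -1.44 (adjusted p = 0.0148). Of the 7 hair follicle stem cell markers the authors' deposited table had 2 higher, Cd34 (1.33) and Krt15 (1.03), and 3 lower, Lgr5 (-1.47), Sox9 (-0.93) and Nfatc1 (-0.93). Of the 4 basal markers it had 3 higher, Krt14 (2.36), Krt5 (1.18) and Itgb4 (0.57), and 1 lower, Trp63 (-1.47). Of the 4 Langerhans and dendritic cell markers with an adjusted p, 0 were called in the authors' deposited table, and their summed level was 10.9, 19.7 and 12.5 TPM in replicates 1, 2 and 3. The part of cell composition in the class I differences was not tested.

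The authors' deposited table also gives a number per gene for H3K27me3, a histone mark linked to gene repression, whose unit and source cells are not stated. Of the 10 genes, 1 had a value above 0, where 8.06% of all entries did. That gene was H2-Q6, with 26797. Values at least as large were listed for 561 genes, of which 40 were detected and 3 had a mean of at least 100 TPM. The score in the authors' deposited table was 645039 for H2-Q6, rank 5 of 20274. Its values match the mark plus 1, multiplied by the log2 fold change and the −log10 of its adjusted p. H2-K1, with a mark of 0, thus has a score of 39.7.

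Other genes of the family were listed with the mark at quite different levels of expression. The authors' deposited table gives 53905 for H2-T3 and 11245 for H2-Q1, neither of which had a count in any library, so that levels of up to 0.102 and 0.0973 TPM respectively are allowed. It gives 17344 for H2-Q10, 15145 for H2-Q7 and 10062 for H2-Q5, which were all detected. H2-Q4, H2-K1, H2-D1 and H2-T23 were listed at 0. Neither a value of 0 nor a high one thus went with a single level of expression among these genes.

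**Figure D5:**
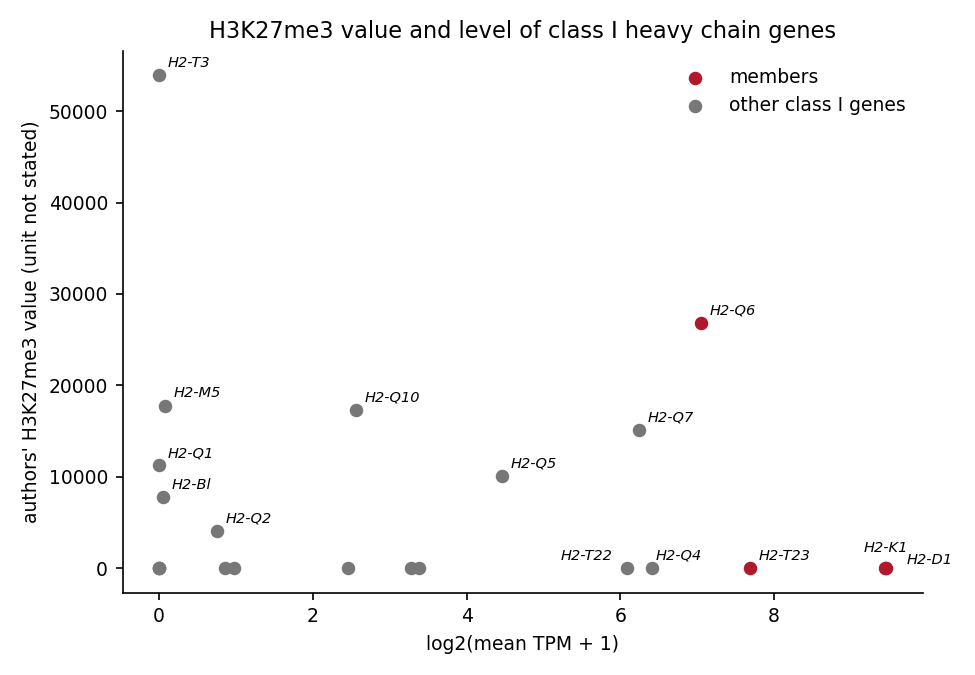
The authors' H3K27me3 value (vertical axis, unit not stated) against log2(mean TPM + 1) over 3 libraries for class I heavy chain genes, those of the set in red. H2-Q6 has the highest value among the detected genes, and H2-T3, with 0 counts, the highest of all.

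Further class I relatives were examined beside the set. Of 23 such genes in the table, 12 were detected, and of the 16 with an adjusted p in the authors' deposited table, 8 were higher and 1 lower, with a median log2 fold change of 1.59. The highest were H2-Q4 with 84.0 TPM, H2-Q7 with 74.8 and H2-T22 with 67.1 on average. H2-T22, whose product is a ligand of some gamma delta T cells, had 72.5, 63.5 and 65.4 TPM and a log2 fold change of 2.90 (adjusted p = 1.65e-29) in the authors' deposited table. Per the authors' deposited table, H2-Q4 was higher by 2.42 and H2-Q7 by 1.33, whereas H2-Q5 (-0.17, adjusted p = 0.738) and H2-Q10 (-0.51, adjusted p = 0.259) were not called. The largest called positive log2 fold change was that of Cd1d1, encoding a lipid-presenting molecule, at 2.96 (adjusted p = 0.0279), on 1.77, 0.171 and 1.44 TPM in replicates 1, 2 and 3. H2-Q2, with 0.694 ± 0.221 TPM (SD, n = 3), was not called (2.34, adjusted p = 0.104), and H2-T24 was the 1 lower gene, at -4.07.

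Genes of peptide loading and trimming were all detected, 8 of 8. Calr, encoding the chaperone calreticulin, had 604 ± 46.7 TPM, P4hb 456 ± 68.9 and Pdia3, the ERp57 partner of tapasin, 370 ± 11.9 (SD, n = 3). Of these 8, the authors' deposited table had 4 higher, Calr (2.07), the tapasin relative Tapbpl (2.02), P4hb (1.22) and Pdia3 (0.98), and 1 lower, the trimming peptidase gene Lnpep (-2.74). The median log2 fold change was 0.69.

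The immunoproteasome, whose catalytic subunits replace the constitutive ones under interferon gamma, was low beside its counterpart. Psmb8 had 14.7 ± 2.28 TPM, Psmb9 10.9 ± 3.25 and Psmb10 15.0 ± 1.14, while constitutive Psmb5 had 140 ± 7.15, Psmb6 188 ± 7.87 and Psmb7 45.9 ± 3.91 (SD, n = 3). The activator genes Psme1, with 109 ± 8.65 TPM, and Psme2, with 117 ± 10.9, were higher than the catalytic immunosubunits in each library. The list median of the 5 immunoproteasome genes lay below that of the 3 constitutive ones by -2.95, -3.16 and -3.03 on the log2 scale in replicates 1, 2 and 3, a mean of -3.05 ± 0.11 (SD, n = 3). As a difference of list means it was -1.72, and Psme1 and Psme2 exceeded constitutive Psmb7. Of the 5, the authors' deposited table had 4 higher, Psmb8 (2.61), Psme2 (2.18), Psmb9 (1.64) and Psmb10 (1.24), and Psme1 (0.07) was not called. All 3 constitutive genes were higher there too, Psmb6 by 2.22, Psmb5 by 1.34 and Psmb7 by 1.21.

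MHC class II genes, which mark professional antigen-presenting cells, were low. Of 12, 6 were detected and 3 had 0 counts in all libraries. Cd74 had 8.22, 14.3 and 9.52 TPM and H2-Ab1 4.42, 6.42 and 3.33, both highest in replicate 2, and H2-DMa had 4.18, 5.96 and 8.42. The median of the set exceeded that of class II by 6.21, 5.25 and 5.24 on the log2 scale, a mean of 5.56 ± 0.56 (SD, n = 3). H2-DMb1 stood apart within class II, with 51.2 ± 7.71 TPM and a log2 fold change of 3.36 in the authors' deposited table, where it was the 1 higher gene of 9 tested. Ciita, the class II transactivator and a relative of Nlrc5, had 0.162 ± 0.105 TPM (SD, n = 3) and was the 1 lower gene, at -2.57.

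Regulators that act at class I promoters were detected in 12 of 12 cases. Rela, an NF-kappa B subunit, had 96.4 ± 15.4 TPM, the Y box factor gene Nfyc 56.2 ± 8.07 and Atf1 34.1 ± 7.12 (SD, n = 3). In the authors' deposited table Rela (2.19), Rfxank (1.28), Rfxap (0.98), Irf1 (0.89) and Nfyc (0.71) were higher, while Creb1 (-1.47) and Atf1 (-1.29), whose products bind the X2 element, were lower. The other 5 of the 12 were not called, among them Rfx5 (-0.26). The list's median log2 fold change in the authors' deposited table was 0.11, below the 0.25 of detected genes and the 1.92 of the set.

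Interferon signalling genes were present, 13 of 13 detected, led by the inhibitor gene Socs3 with 323 ± 80.3 TPM and the kinase gene Jak1 with 63.6 ± 3.75 (SD, n = 3). The authors' deposited table had 4 of them higher, Socs1 (4.91), Socs3 (3.51), the receptor gene Ifngr1 (1.19) and Irf9 (0.74). Of 19 interferon-stimulated genes, 8 were detected and the list median was 0.717 ± 0.189 TPM (SD, n = 3). Ifitm3 had 393 ± 29.0 TPM and Ifi27 141 ± 27.5, but the chemokine genes Cxcl9 and Cxcl10 had 1.43 ± 0.197 and 2.74 ± 0.492 (SD, n = 3). Of the 17 with an adjusted p in the authors' deposited table, 4 were higher, Bst2 (3.08), Isg15 (2.04), Ifi27 (1.61) and Ifitm3 (0.97), and 3 lower, Ifi44 (-3.83), Cxcl9 (-3.24) and Cxcl10 (-2.07). That is 23.5% higher and 17.6% lower, where the shares over all tested genes were 23.6% and 32%. Of the 13 signalling genes 30.8% were higher, where 35.1% of detected genes were.

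Cd274 was set beside a list of 15 genes for other checkpoint molecules, which also holds costimulatory and death receptor ligands, and 9 of them were detected. Cd200, whose product restrains myeloid cells, had 233, 153 and 229 TPM, a mean of 205 ± 44.7 (SD, n = 3), and was not called in the authors' deposited table (0.20, adjusted p = 0.427). Pdcd1lg2, encoding PD-L2, had 0 counts in all 3 libraries. Of 9 with an adjusted p in the authors' deposited table, 3 were higher, Vsir (1.74), Nectin2 (1.61) and Lgals9 (1.08), and 2 lower, Pvr (-1.68) and Cd47 (-2.54), the gene of a signal that inhibits phagocytosis. Cd47 still had 73.9 ± 4.09 TPM (SD, n = 3) in these libraries.

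Of 14 genes for soluble factors and complement regulators linked to immune privilege, 8 were detected. Mif, encoding a cytokine that inhibits NK cells in the follicle and the eye, had 904, 1113 and 1057 TPM, a mean of 1025 ± 108 (SD, n = 3), with replicate 1 the lowest. Of 10 tested in the authors' deposited table, 4 were higher, Mif (2.88), Tgfb1 (1.30), Cd59a (0.66) and Nt5e (0.55), and 2 lower, Cr1l (-0.65) and Il10 (-4.60). Il10 rested on 1, 5 and 1 counts in these libraries, and Ido1 had 0 in all.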

How the data were processed

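The members and gene lists were chosen with earlier results of these data known, so they are no independent evidence. The 3 libraries form 1 group, and no contrast between groups was fitted. Per the file headers, the authors deposited read counts per gene and TPM. Recomputing TPM from the counts and lengths gave the same values to within 4.72e-06. The deposited table further holds the authors' log2 fold change, adjusted p-value and score, whose test is not stated. The deposited H3K27me3 number per gene has no stated unit. Per the submitters' processing notes, FastQC, SAMtools, TopHat2, DESeq2, DESeq and the builds mm10 and GRCm38 were used, but their roles and versions are not given in the sources used here. A further 6 columns of per-sample values matched no sample and were not analysed here.

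Genes were matched by symbol or identifier, and coordinates come from GENCODE M21 (GRCm38). Levels were compared as log2(TPM + 1), which understates differences between low genes, with mean and SD over 3 libraries. Neighbours in the order of means were compared within libraries by a two-sided exact sign-flip permutation test with Benjamini-Hochberg adjustment. A count of 0 allows up to 3 counts, and Poisson and binomial intervals are exact at 95%. Shared reads were gauged by the share of 50-, 75- and 100-base words of a gene's transcripts found on either strand of another gene's transcripts. Motifs were searched on both strands of the 250 bases before each RefSeq start. Scripts were tested on simulated data. Alternatives were other detection limits, pseudocounts, scalings (edgeR 4.0.16 for TMM), call rules and leaving out each library. Named genes were all members, every gene of lists of 5 or fewer, any H2-Q gene, and in longer lists the 3 highest by TPM and the 3 largest called fold changes in each direction; marker lists are given by counts and a few examples. Where 5 or fewer genes of a list were called, all were named, and these and a few others (H2-Ab1, H2-Bl, H2-M3, H2-T10, Rfx5, Pdcd1lg2 and Ido1) were added after their values were seen. The value of 1 gene of the interferon signalling list is not reported here. Python 3.11.15, pandas 2.3.3, scipy 1.17.1 and R 4.3.3 were used.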

Additional observations from a re-analysis of the deposited data

How the results depend on the processing

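No paired contrast between groups was possible because the 3 libraries form 1 group, while neighbouring genes were compared within libraries. Over 83 recomputed values, 69 kept their direction and their size within the spread of the libraries or within 1.5 times a count, and 14 moved. Genes called lower in the authors' deposited table were 2 as reported, 0 at an adjusted p under 0.01 and 1 with a log2 change of at least 1 in size; the 8 called higher were 8 under both. Genes highest in replicate 1 were 7 as reported, 4 after upper-quartile scaling, 4 without mitochondrial genes and 2 with TMM factors. The set exceeded class II by 5.56 on the log2 scale as a difference of medians, by 4.98 as a difference of means and by 6.55 with a pseudocount of 0.1, and the immunoproteasome differed from the constitutive subunits by -3.05 and, as a difference of means, by -1.72. The share of H2-Q6 in H2-Q6 and H2-Q7 was 46.3% by counts and 63.8% by TPM. Leaving out each library gave 9 to 10 detected genes, 6 to 8 neighbour pairs, 5.24 to 5.73 and -3.10 to -2.99 for the list differences, and 44.9% to 47.2% for that share. Without mitochondrial genes, mean TPM rose by more than its SD for H2-D1 (794), H2-T23 (231), B2m (2467), Tap1 (53.0) and Tap2 (34.8), since the total is then shared by fewer genes. The cause of the other shifts was not tested. The scalings of the H2-Q genes were added after seeing the data. With 43, 53 and 42 counts, Cd274 is limited by depth, and the 3 libraries limit every comparison.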

Other observations

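Ligands of NK cell receptors were also measured. Of 6 such genes in the table, 2 were detected. H60c, encoding a skin ligand of the activating receptor NKG2D, had 21.5, 20.0 and 22.5 TPM in replicates 1, 2 and 3, a mean of 21.4 ± 1.26 (SD, n = 3). Clec2d, encoding a ligand of an inhibitory NK receptor, had 201, 15.5 and 25.9 TPM from 2626, 257 and 485 counts, so replicate 1 stood far above the other two. Neither was called in the authors' deposited table, where H60c had a log2 fold change of 0.21 (adjusted p = 0.517) and Clec2d 0.34 (adjusted p = 0.760). Ulbp1 had 6, 8 and 0 counts, and Raet1d and Raet1e had 0 in all 3 libraries.

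Some class I genes beyond the H2-Q family were also high in replicate 1, where 59.6% of detected genes had their top value. Replicate 1 exceeded the mean log2 level of the others by 2.12 for H2-K2, 1.34 for H2-T10 and 0.78 for H2-M3. For the more highly expressed H2-T22, H2-T23 and H2-D1 the offset was 0.17, 0.08 and -0.07, below the median of 0.24 over detected genes. H2-K2 had 19.0, 3.62 and 3.58 TPM, H2-T10 had 8.17, 2.80 and 2.47, and H2-M3 had 13.5, 7.97 and 6.94, whereas Fcgrt, encoding the neonatal Fc receptor, had 46.3, 51.1 and 53.1. In the authors' deposited table these 4 were all higher, by 2.89, 2.49, 1.86 and 1.85 on the log2 scale.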
